A study of Mus musculus with 32 samples.

Results

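The Krüppel-like factors (Klf) are zinc finger transcription factors, and 10 of them were followed through the first cell cycles of the mouse embryo: Klf2, Klf3, Klf4, Klf5, Klf6, Klf9, Klf10, Klf11, Klf13 and Klf17. They are 10 of the 55385 genes listed in each RNA library. They were chosen by name with earlier results of these data known, so their counts are not those of an unselected set. The study profiled in vitro fertilized embryos of B6D2F1/J females and B6D2F1/J males of 6 to 8 weeks, and every group was wild type. Total RNA was sequenced from 16 libraries in 8 groups of 2, and open chromatin was profiled by ATAC-seq in 4 groups of 2 samples. A-485, which blocks the acetyltransferase activity of CBP and p300, was given at 10 µM from 4 to 20 hours post in vitro fertilization (hpi), and RNA was taken from zygotes, from early 2-cell embryos and from late 2-cell embryos beside DMSO-treated controls. TSA-treated late 2-cell embryos had been cultured with 50 nM trichostatin A (TSA), an inhibitor of histone deacetylases (HDACs), from 8 to 28 hpi, and had DMSO-treated controls of their own. A-485 treatment was transient, and the drug was washed out at 20 hpi, before the late 2-cell stage. Both inhibitors acted on whole embryos and on every protein that these enzymes modify, not on chromatin alone. ATAC-seq was done in the A-485 experiment, on late 1-cell embryos and on early 2-cell embryos.

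Klf proteins bind GC-rich and CACCC sequences through zinc fingers at the C terminus, which all members share, and differ in the N-terminal part that recruits coactivators such as CBP/p300 or corepressors such as CtBP and Sin3A. In embryonic stem cells Klf2, Klf4 and Klf5 maintain naive pluripotency, and in the embryo Klf5 is needed for the early blastocyst lineages. Mouse embryos transcribe their own genome at a low rate from the zygote on and strongly at the late 2-cell stage, and most transcripts of the zygote come from the oocyte.

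The 4 promoters below belong to genes whose transcripts responded to an inhibitor in different ways and are the RefSeq windows of 250 bases before the start (GRCm38.p6), on the strand of the gene and ended before the first exon base annotated in GENCODE M21. They are those of Klf17 (chr4:117765667-117765916, minus strand), Klf9 (chr19:23140976-23141225, plus strand), Klf6 (chr13:5861239-5861481, plus strand) and Klf2 (chr8:72318812-72319032, plus strand). Capitals mark the GC box GGGCGGG and the core GGGNGNGGC read by Klf zinc fingers, searched on both strands. The letters GGGCGGGGC hold both motifs.
Klf17 promoter: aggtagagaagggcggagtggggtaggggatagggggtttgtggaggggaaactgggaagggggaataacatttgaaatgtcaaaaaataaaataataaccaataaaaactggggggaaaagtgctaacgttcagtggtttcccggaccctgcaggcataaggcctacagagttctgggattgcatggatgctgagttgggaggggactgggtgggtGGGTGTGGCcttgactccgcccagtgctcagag
Klf9 promoter: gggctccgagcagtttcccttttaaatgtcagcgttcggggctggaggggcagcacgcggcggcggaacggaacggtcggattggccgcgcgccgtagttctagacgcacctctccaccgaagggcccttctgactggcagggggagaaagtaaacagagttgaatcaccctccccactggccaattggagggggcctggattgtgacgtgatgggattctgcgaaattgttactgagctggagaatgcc
Klf6 promoter: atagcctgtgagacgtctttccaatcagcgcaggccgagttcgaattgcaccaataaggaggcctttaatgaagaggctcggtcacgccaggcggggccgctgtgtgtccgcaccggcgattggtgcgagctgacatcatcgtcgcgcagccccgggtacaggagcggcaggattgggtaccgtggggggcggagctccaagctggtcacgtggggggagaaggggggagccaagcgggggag
Klf2 promoter: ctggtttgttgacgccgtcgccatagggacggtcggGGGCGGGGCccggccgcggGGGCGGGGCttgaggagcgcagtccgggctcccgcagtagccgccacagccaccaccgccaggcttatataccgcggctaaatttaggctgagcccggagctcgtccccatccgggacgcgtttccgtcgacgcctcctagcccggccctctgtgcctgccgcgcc

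RefSeq windows were matched for 8 of the 10 members, all but Klf5 and Klf10. Of these 8 full windows 5 held a GC box, 6 held the Klf core and 5 held both, against 23.4%, 23.3% and 14.1% of all 32851 RefSeq promoter windows of the same length. The median GC content was 71.4% in the 8 windows and 52.4% in all windows, and the part of base composition in the motif shares was not tested. Klf4 held 4 GC boxes and 4 cores, Klf3 held 4 and 3, and Klf11 held 3 and 4. Klf2 and Klf13 each held 2 of both. The Klf17 window, with a GC content of 52%, held 1 core and no GC box, and those of Klf6 and Klf9 held neither.

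Regions of open chromatin away from start sites looked different. The 3 windows below are 201 bases around the summits of distal peaks that were present in DMSO-treated early 2-cell embryos and absent after A-485 treatment, on the plus strand of GRCm38. They lie downstream of Klf17 (chr4:117746170-117746370), upstream of Klf2 (chr8:72315320-72315520) and upstream of Klf9 (chr19:23120456-23120656), all between annotated genes. Capitals again mark exact matches to the GC box and to the Klf core, in which N is any base. Other GC-rich or CACCC sequences are not marked.
Klf17 distal peak: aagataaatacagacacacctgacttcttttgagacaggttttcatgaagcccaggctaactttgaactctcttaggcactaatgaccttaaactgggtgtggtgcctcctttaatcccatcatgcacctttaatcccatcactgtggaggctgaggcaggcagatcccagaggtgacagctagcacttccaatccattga
Klf2 distal peak: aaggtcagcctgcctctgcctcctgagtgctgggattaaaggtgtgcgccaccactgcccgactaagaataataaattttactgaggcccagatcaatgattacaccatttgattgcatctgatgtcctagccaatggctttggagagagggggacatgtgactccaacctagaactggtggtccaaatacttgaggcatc
Klf9 distal peak: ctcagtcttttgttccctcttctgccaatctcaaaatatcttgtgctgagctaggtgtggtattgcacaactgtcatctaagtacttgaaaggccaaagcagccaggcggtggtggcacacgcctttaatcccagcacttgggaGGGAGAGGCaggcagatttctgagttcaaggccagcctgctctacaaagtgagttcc

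Of the 20 distal windows near members in DMSO-treated early 2-cell embryos, 1 held a GC box and 2 held the Klf core, against 1.87% and 5.38% of all 16719 distal windows of that list. Repeats masked in the reference covered more than 50% of the bases in 14 of the 20 windows, and in 60.4% of all distal windows.

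The RNA libraries held between 13206163 and 32585987 expected counts, the lowest after A-485 at late 2-cell and the highest after A-485 in zygotes. Replicates of a group differed by more than counting noise, the chi-square over genes being 9.44 to 19.64 times its degrees of freedom, so no pair looked like 1 library. Markers of the embryo were present throughout: 7 oocyte and zygote markers summed to between 899.17 and 2653.41 FPKM in every library. Of the 6 cumulus cell and 5 fibroblast markers, the sums stayed at or under 3.67 FPKM, with Inha at 0 in the zygote and early 2-cell libraries. The sums of 5 endothelial markers, led by Pecam1, lay between 8.31 and 19.25 FPKM, and those of 4 sperm markers, led by Prm2, between 1.21 and 18.76 FPKM, highest in zygotes. Whether replicates came from separate collections of embryos is not given in the sources used here. The p-values rest on the spread between these libraries, which edgeR takes for each gene in part from all genes, and may not cover the spread between collections. FPKM is a level per kilobase of effective length, and its sum over all genes ran from 799722 in DMSO-treated zygotes to 2045551 after A-485 at late 2-cell. Ratios of FPKM between groups differ from fold changes, which were computed with edgeR from counts, without effective lengths and after TMM normalization. Calls required an adjusted p (Benjamini-Hochberg) under 0.05, a change of at least 2-fold and an average of at least 1 FPKM in some group.

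In DMSO-treated embryos the Klf transcripts changed from a pool dominated by 1 member to a mixed pool. Klf17, a member known mainly from germ cells and the early embryo, read 342.56 and 299.58 FPKM in the 2 DMSO-treated zygote libraries and made up 88.4% of the summed FPKM of the 10 members. It stood at rank 193 of 21897 protein-coding genes there. In early 2-cell embryos it read 144.73 and 167.07 FPKM, and in late 2-cell embryos 155.34 and 161.37 FPKM, when its share was 60.1% and 46.8% of sums of 259.4 and 338.5 FPKM. From zygote to early 2-cell the log2 fold change of Klf17 was -0.95 ± 0.08 (SE, n = 2 against 2 libraries, adjusted p = 6.5e-07), just short of the 2-fold limit for a call. It was called without early 2-cell DMSO replicate 2, without zygote DMSO replicate 2 and with scaling to total counts. From early to late 2-cell it was 0.02 ± 0.10 (adjusted p = 0.912), and the libraries of the 2 stages overlapped.

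**Figure D1:**
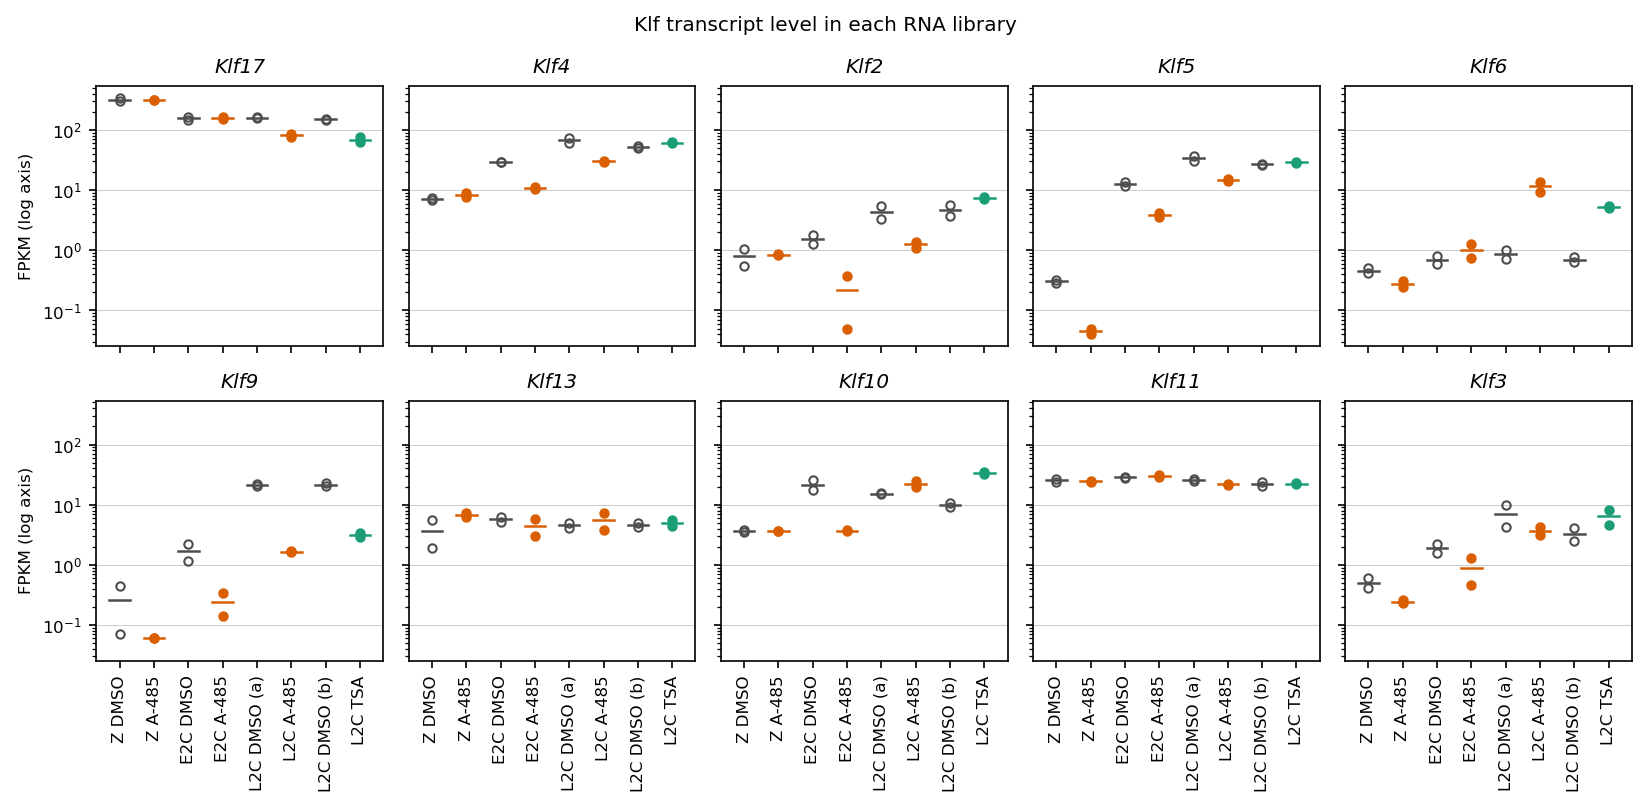
Level of each of the 10 Klf genes in each RNA library, in FPKM on a log axis, with 1 point per library and a line at the mean of each group of 2. Z, zygote; E2C, early 2-cell; L2C, late 2-cell; (a) and (b) are the DMSO-treated controls of the A-485 and of the TSA experiment. Klf17 had the highest mean in every group, from 321.07 FPKM in DMSO-treated zygotes to 69.18 FPKM after TSA, where its range overlapped that of Klf4.

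From DMSO-treated zygotes to early 2-cell embryos 5 of the 10 members were called up-regulated and none down-regulated, against 11.2% and 14.9% of the 20106 genes tested. Klf5 rose from 0.32 and 0.29 FPKM to 11.79 and 13.61 FPKM, a 48.69-fold change in counts (log2 fold change 5.61 ± 0.23, adjusted p = 5.13e-10). Klf9, also known as basic transcription element-binding protein, rose from 0.07 and 0.45 FPKM to 2.23 and 1.15 FPKM (log2 fold change 3.96 ± 0.50, adjusted p = 1.96e-05, and 4.67 without zygote DMSO replicate 2). Klf10, an early response gene of TGF-β signalling, rose from 3.79 and 3.55 FPKM to 25.69 and 17.35 FPKM (log2 fold change 2.68 ± 0.19, adjusted p = 1.03e-07). In each of the 3 genes every early 2-cell library lay above both zygote libraries. Klf4, a reprogramming factor, rose from 6.85 and 7.36 FPKM to 28.85 and 29.46 FPKM (4.28-fold in counts, log2 SE 0.12, adjusted p = 1.32e-08). Klf3, a repressor that binds CtBP, rose from 26 and 18 expected counts to 96 and 89 (log2 fold change 2.61 ± 0.45, adjusted p = 0.000309). Scaling to mitochondrially encoded genes moved the median log2 fold change of all expressed genes from -0.12 to -1.45. Under that scaling the call of Klf4 was lost (log2 fold change 0.77), Klf17 was called down-regulated (-2.27), and the other 4 calls remained. Over all 20106 genes tested, 1270 were then called up-regulated and 8196 down-regulated.

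From early to late 2-cell embryos, with the DMSO-treated controls of the A-485 experiment, 6 members were called up-regulated and none down-regulated, against 15.9% and 8.92% of 20326 genes. The comparison shares its early 2-cell libraries with the one before. Klf9 showed the largest change of the 6, to 20.69 and 21.81 FPKM (log2 fold change 3.61 ± 0.27, adjusted p = 6.51e-07, and 4.19 without early 2-cell DMSO replicate 1). Klf3 (log2 fold change 1.94 ± 0.28), Klf2 (1.48 ± 0.40), Klf5 (1.44 ± 0.15), Klf4 (1.23 ± 0.14) and Klf13 (1.12 ± 0.27) were the others, with adjusted p between 8.25e-06 and 0.0128. Klf2 and Klf13 lost their calls without early 2-cell DMSO replicate 2 (log2 fold changes 1.21 and 0.94), Klf2 also without late 2-cell DMSO replicate 2 of the A-485 experiment (1.13). With the controls of the TSA experiment in place of those of the A-485 experiment, Klf4 was not called (0.91) and Klf10 was called down-regulated (-1.12).

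In DMSO-treated zygotes Klf17 was followed by Klf11, a close relative of Klf10 that is also induced by TGF-β (25.30 FPKM), Klf4 (7.11 FPKM), Klf13 (3.71 FPKM) and Klf10 (3.67 FPKM), and the other 5 lay under 1 FPKM on average. Klf13 and Klf10 did not differ beyond their replicates there, nor did Klf2, Klf3 and Klf6, next in order, each from its neighbour. In the DMSO-treated late 2-cell controls of the A-485 experiment the order was Klf17, Klf4 (67.41 FPKM), Klf5 (33.89 FPKM), Klf11 (25.60 FPKM), Klf9 (21.25 FPKM) and Klf10 (15.18 FPKM), and no neighbours among these 6 overlapped. Klf3, Klf13 and Klf2 followed between 4.38 and 7.02 FPKM and overlapped their neighbours, and Klf6, a broadly expressed activator, came last at 0.88 FPKM. In the controls of the TSA experiment the first 6 places were the same, but Klf11 (20.85 and 23.50 FPKM) overlapped Klf9 (20.10 and 22.75 FPKM), and Klf2 (4.71 FPKM), Klf13 (4.59 FPKM) and Klf3 (3.26 FPKM) followed in that order. Klf11 stayed between 20.85 and 30.63 FPKM over all 16 libraries.

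**Figure D2:**
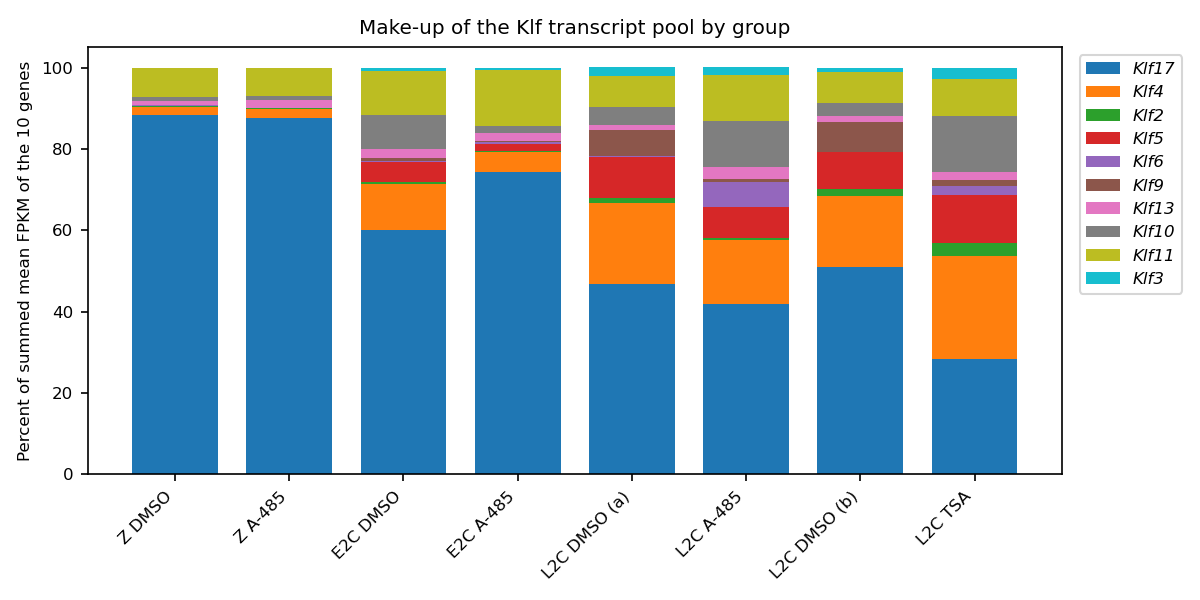
Share of each Klf gene in the summed mean FPKM of the 10 genes, in percent, for the 8 RNA groups; labels as in the plot of levels by library. Klf17 took 88.4% in DMSO-treated zygotes, 46.8% in DMSO-treated late 2-cell embryos of the A-485 experiment and 28.4% in TSA-treated late 2-cell embryos.

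In zygotes the A-485 treatment changed few genes and no member was called. The background was 0.00548% of 18258 genes up-regulated and 0.0657% down-regulated. By edgeR 1 member, Klf5, had an unadjusted p under 0.05, and DESeq2 also called none and gave 1 such p. Klf5 read 27 and 23 expected counts in DMSO-treated and 5 and 4 in A-485-treated zygotes. Its groups did not overlap, at levels of 0.04 to 0.32 FPKM. The edgeR model gave it a log2 fold change of -2.55 ± 0.93 with an adjusted p of 0.83. With all 16 libraries in 1 edgeR fit it was -2.54 with an adjusted p of 4.68e-05, and no call was made because its level was under 1 FPKM. Klf3 (-1.16 ± 0.83), Klf9 (-0.97 ± 1.05) and Klf6 (-0.70 ± 0.50), also under 1 FPKM, were not called, with adjusted p between 0.954 and 0.997. Klf17 (-0.01 ± 0.06), Klf11 (-0.06 ± 0.09), Klf10 (0.05 ± 0.17), Klf4 (0.23 ± 0.14), Klf13 (0.04 ± 0.25) and Klf2 (0.09 ± 0.50) had log2 fold changes between -0.06 and 0.23.

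In early 2-cell embryos Klf2, Klf4, Klf5, Klf9 and Klf10 were lower after A-485 treatment. Of the 10 members 5 were called down-regulated and none up-regulated, against 7.9% and 0.402% of 20872 genes, with a median log2 fold change of -1.38 over the members and -0.01 over all expressed genes. This comparison shares its DMSO-treated libraries with those between stages.

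Among the pluripotency factors, Klf4 read 28.85 and 29.46 FPKM in DMSO-treated and 10.26 and 11.40 FPKM in A-485-treated early 2-cell embryos (log2 fold change -1.43 ± 0.12, adjusted p = 4.62e-06). Klf5 read 11.79 and 13.61 against 3.60 and 4.17 FPKM (-1.75 ± 0.17, adjusted p = 1.43e-05). Klf2 read 65 and 46 against 14 and 2 expected counts (-2.82 ± 0.81, adjusted p = 0.0413). In all 3 every A-485-treated library lay below every control, but the Klf2 call was lost without early 2-cell A-485 replicate 2 (-1.98), without early 2-cell DMSO replicate 1 (-2.51) and with scaling to total counts (-2.85). Without early 2-cell A-485 replicate 1, the library with 14 counts, it was called at -4.85. The levels left in Klf4 and Klf5 were still above the 6.85 to 7.36 and 0.29 to 0.32 FPKM of DMSO-treated zygotes.

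Klf10 had the smallest adjusted p of the 10 at this stage. It read 25.69 and 17.35 FPKM in DMSO-treated and 3.65 and 3.79 FPKM in A-485-treated early 2-cell embryos, a 6.70-fold lower count (log2 fold change -2.74 ± 0.22, adjusted p = 2.57e-06). The treated level lay within the range of the 4 zygote libraries, 3.55 to 3.79 FPKM. Klf9 read 2.23 and 1.15 against 0.34 and 0.14 FPKM (-2.80 ± 0.50, adjusted p = 0.00228), and its log2 fold change was -3.63 without early 2-cell A-485 replicate 1 and -2.21 without early 2-cell DMSO replicate 1. Klf3 was lower in both treated libraries, with 42 and 35 against 96 and 89 expected counts, and missed the threshold (-1.33 ± 0.41, adjusted p = 0.059). It was called by edgeR with no filter on low counts (adjusted p = 0.0467), with all 16 libraries in 1 fit (0.00891) and with the replicate number as a block (0.0396).

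Klf17, Klf11, Klf13 and Klf6 were not called. Klf17 read 144.73 and 167.07 FPKM in DMSO-treated and 167.39 and 153.04 FPKM in A-485-treated embryos (0.06 ± 0.08), and Klf11 27.84 to 29.21 against 29.12 to 30.63 FPKM (0.10 ± 0.09). These are the 2 members with the highest levels in the zygote. In the same libraries the summed level of 6 markers of the 2-cell stage was between 455.49 and 491.23 FPKM in controls and between 27.26 and 28.56 FPKM in treated embryos, and that of 7 oocyte and zygote markers was 2129.01 to 2166.96 FPKM in controls and 2331.49 to 2466.77 FPKM in treated embryos. The part of embryo progress in the Klf values was not tested. In pooled embryos, fewer cells with a transcript and less of it per cell cannot be told apart.

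**Figure D3:**
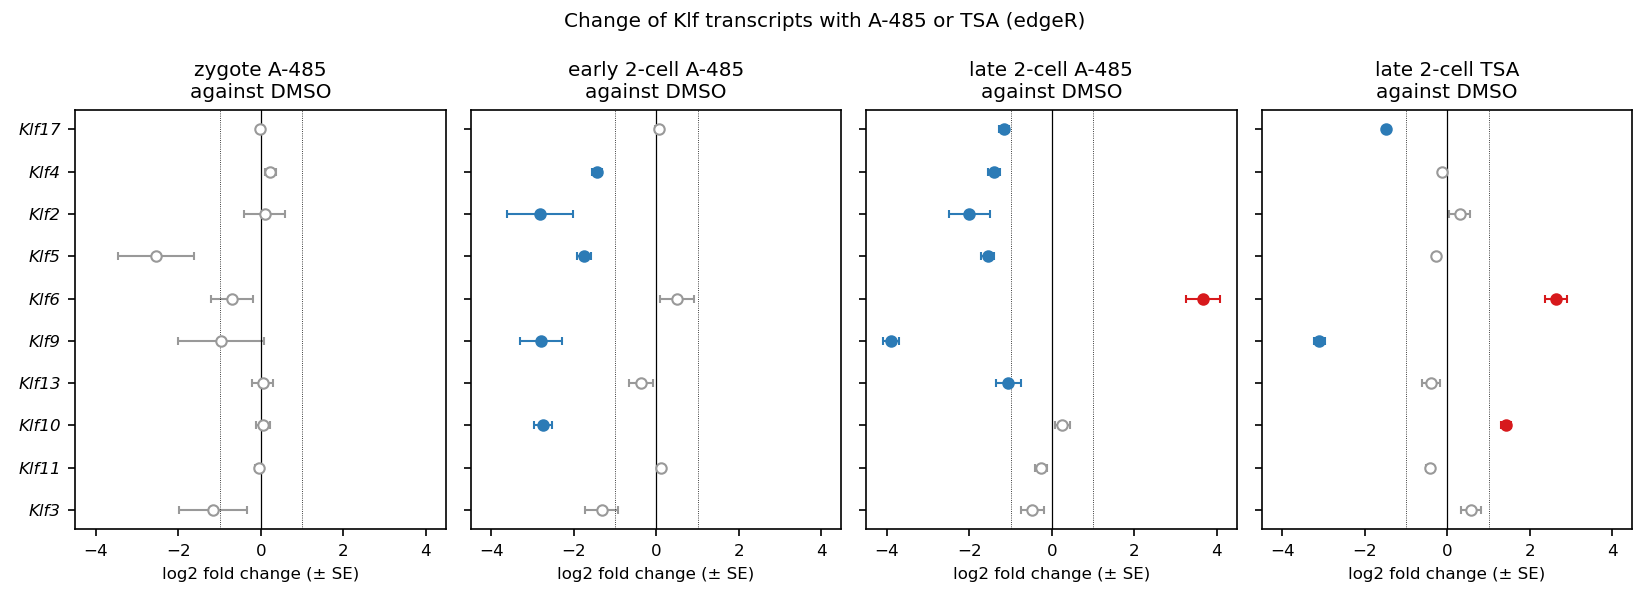
Log2 fold change of each Klf gene (edgeR, n = 2 against 2 libraries) in the 4 inhibitor comparisons, with bars of 1 SE on either side; filled points were called up-regulated (red) or down-regulated (blue), open grey points were not, and dotted lines mark 2-fold. Klf9 fell by 3.90 with A-485 and by 3.11 with TSA at late 2-cell, and Klf6 rose by 3.66 and 2.64.

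In late 2-cell embryos the A-485 comparison held 6 down-regulated members and 1 up-regulated member, against 16.8% and 10.5% of 22822 genes. Klf9 fell the most. It read 20.69 and 21.81 FPKM in DMSO-treated and 1.63 and 1.69 FPKM in A-485-treated embryos, a 14.93-fold lower count (log2 fold change -3.90 ± 0.19, adjusted p = 2.56e-08). The treated level was close to that of DMSO-treated early 2-cell embryos, 1.15 and 2.23 FPKM.

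Klf4, Klf5 and Klf2 were again down-regulated. Klf4 read 73.80 and 61.01 against 30.91 and 29.30 FPKM (-1.41 ± 0.14, adjusted p = 9.33e-06), Klf5 30.83 and 36.94 against 14.28 and 15.16 FPKM (-1.56 ± 0.16, adjusted p = 8.44e-06), and Klf2 3.29 and 5.47 against 1.40 and 1.11 FPKM (4.0-fold lower in counts, log2 SE 0.49, adjusted p = 0.00677). The groups did not overlap in any of these. The Klf2 call was lost without late 2-cell DMSO replicate 2 (-1.62).

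Klf17 now fell too, from 155.34 and 161.37 FPKM to 87.04 and 75.57 FPKM (-1.16 ± 0.12, adjusted p = 7.58e-06). With scaling to total counts it was just under 2-fold (-0.97). Markers of the oocyte and zygote moved the other way, from 1051.06 to 1148.99 FPKM in controls to 1842.82 to 1858.29 FPKM in treated embryos. The 6 markers of the 2-cell stage summed to 270.09 to 300.61 FPKM in controls and 57.65 to 78.12 FPKM in treated embryos, and protein-coding genes of the mitochondrial genome took 2.35% and 2.45% of counts in controls and 5.35% and 5.43% in treated libraries. The part of these in the late 2-cell values was not tested. Klf13, best known from T lymphocytes, fell in counts from 326 and 301 to 104 and 127 (-1.05 ± 0.30, adjusted p = 0.0148), but its FPKM overlapped between groups, at 4.10 and 4.93 against 3.80 and 7.26. The effective length that RSEM gave Klf13 ran from 784 to 4072 bases over the libraries, so the 2 scales differ for this gene. It also ran from 1241 to 4995 bases for Klf3, from 1534 to 4342 for Klf9 and from 2011 to 4069 for Klf6, whose FPKM values share this limit. The Klf13 call was lost under 6 of 12 alternatives, DESeq2 included.

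Klf6 was the member that rose. It read 0.73 and 1.03 FPKM after DMSO and 13.90 and 9.25 FPKM after A-485 at late 2-cell, a 12.67-fold higher count (3.66 ± 0.41, adjusted p = 1.94e-05, and 4.55 without late 2-cell DMSO replicate 2 of the A-485 experiment), and moved from the last to the sixth place among the 10. At early 2-cell it had read 0.79 and 0.59 against 1.25 and 0.74 FPKM (0.50 ± 0.41, adjusted p = 0.515). Cumulus cells also express Klf6, and the summed level of 6 cumulus markers was 0.20 to 1.07 FPKM in controls and 3.20 to 3.67 FPKM in treated embryos, with Fshr at 0 in both groups and Foxl2 the highest treated marker at 1.63 FPKM. The summed level of 5 fibroblast markers was 0.05 to 0.10 and 0.28 to 0.47 FPKM, and that of 5 endothelial markers 9.44 to 9.85 and 17.09 to 19.25 FPKM, with Emcn at 0 in both groups and Pecam1 the highest treated marker at 15.42 FPKM. The part of such cells in the Klf6 value was not tested.

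Klf10, Klf11 and Klf3 were not called at late 2-cell after A-485. Klf10 read 14.79 and 15.57 against 24.31 and 19.64 FPKM, with a log2 fold change in counts of 0.25 ± 0.18 (adjusted p = 0.289) that became -0.73 with scaling to mitochondrially encoded genes. That scaling moved the median of all expressed genes from 0.02 to -0.96. It brought Klf11 (-1.24) and Klf3 (-1.44) past the threshold, so that 9 of the 10 members were called. Over all 22822 genes tested it called 1177 up-regulated and 6874 down-regulated.

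TSA, which raises acetylation, gave 2 up-regulated and 2 down-regulated members, against 13.8% and 13.9% of 23429 genes, and the same 4 were called under all 12 alternatives. Klf9 read 22.75 and 20.10 FPKM in DMSO-treated and 2.94 and 3.42 FPKM in TSA-treated late 2-cell embryos (-3.11 ± 0.14, adjusted p = 3.09e-08). Klf17 read 149.12 and 153.22 against 75.83 and 62.53 FPKM (-1.48 ± 0.09, adjusted p = 2.62e-07). Klf6 rose from 0.76 and 0.64 to 5.45 and 5.11 FPKM (2.64 ± 0.26, adjusted p = 1.4e-05), and Klf10 from 9.0 and 10.63 to 35.33 and 31.89 FPKM (1.42 ± 0.12, adjusted p = 5.06e-06). In all 4 the groups stood apart. Fibroblast markers summed to 0.08 to 1.49 FPKM in controls and 1.88 to 2.64 FPKM in TSA-treated embryos, and cumulus markers to 0.72 to 0.85 and 1.47 to 1.73 FPKM. The highest treated markers of these were Col1a1 (2.63 FPKM) and Foxl2 (0.69 FPKM). Erythroid markers summed to 0.07 to 0.21 and 6.95 to 9.19 FPKM, with the alpha globin gene Hba-a1 highest at 7.85 FPKM and both beta globin genes at 0. Endothelial markers summed to 8.31 to 8.56 FPKM in controls and 12.80 to 12.84 FPKM in TSA-treated embryos, led by Pecam1. The 6 markers of the 2-cell stage summed to 165.06 to 212.83 and 495.41 to 508.74 FPKM, those of the oocyte and zygote to 899.17 to 916.85 and 1078.07 to 1170.99 FPKM, and protein-coding genes of the mitochondrial genome took 2.39% and 2.71% of counts in controls and 3.66% and 3.72% in treated libraries. Their part was not tested.

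The pluripotency factors kept their levels within 2-fold. Klf4 read 53.90 and 50.70 FPKM in DMSO-treated and 62.61 and 60.56 FPKM in TSA-treated embryos, with a log2 fold change in counts of -0.12 ± 0.08 (adjusted p = 0.229) that was 0.23 with scaling to total counts and 0.01 with all 16 libraries in 1 fit. Klf5 had -0.26 ± 0.09 (adjusted p = 0.0353), which was 0.09 with scaling to total counts, and Klf2 0.30 ± 0.25 (adjusted p = 0.374). Klf11 had -0.42 ± 0.10 (adjusted p = 0.00577), Klf3 0.58 ± 0.24 and Klf13 -0.39 ± 0.21.

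The difference between the 2 inhibitors was tested as an interaction over the 8 late 2-cell libraries. For 5 members the A-485 effect was lower than the TSA effect by more than 2-fold, against 10.8% of 26554 genes, and for none higher, against 2.7%. They were Klf2 (log2 difference -2.41 ± 0.51, adjusted p = 0.0023), Klf5 (-1.40 ± 0.18, adjusted p = 1.59e-05), Klf4 (-1.39 ± 0.17, adjusted p = 9.81e-06), Klf10 (-1.28 ± 0.22, adjusted p = 0.000406) and Klf3 (-1.16 ± 0.37, adjusted p = 0.0393). The Klf3 call was lost under 8 of 16 alternatives, among them leaving out either late 2-cell DMSO library of the A-485 experiment, A-485 replicate 2, TSA replicate 1 or DMSO replicate 1 of the TSA experiment. Klf6 was called, at 1.77, without late 2-cell DMSO replicate 2 of the A-485 experiment, and Klf9 without TSA replicate 1. With scaling to mitochondrially encoded genes 7 members were called, with Klf9 (-1.59) and Klf13 (-1.44) added. Over all 26554 genes that scaling gave 326 higher and 5238 lower. For the genes that both inhibitors moved past 2-fold in the same direction, the differences were -0.90 ± 0.22 for Klf9 (adjusted p = 0.00683), 0.92 ± 0.50 for Klf6 (adjusted p = 0.248) and 0.21 ± 0.15 for Klf17 (adjusted p = 0.397). The inhibitors differ in dose and in the time of exposure, which cannot be told apart from the enzymes they block.

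The A-485 effect was also compared between early and late 2-cell. It was higher at late 2-cell for Klf6 (log2 difference 3.24 ± 0.54, adjusted p = 6.15e-05, and 2.49 and 3.86 without late 2-cell DMSO replicate 1 or 2 of the A-485 experiment) and Klf10 (3.08 ± 0.28, adjusted p = 8.92e-09) and lower for Klf17 (-1.14 ± 0.15, adjusted p = 1.8e-06), against 7.6% of 25141 genes higher and 7.38% lower. The differences for Klf4 (0.11 ± 0.19, adjusted p = 0.804) and Klf5 (0.28 ± 0.23, adjusted p = 0.454) did not pass the test. For Klf9 it was -1.02 ± 0.45 (adjusted p = 0.123). With scaling to mitochondrially encoded genes 6 members were called, with Klf9 (-2.07), Klf13 (-1.66) and Klf11 (-1.34) added. Over all 25141 genes that scaling gave 947 higher and 5380 lower. Klf9 was also called with no filter on low counts, without early 2-cell A-485 replicate 2 and without early 2-cell DMSO replicate 1.

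Open chromatin near these genes was read from 1 list of reproducible ATAC-seq peaks per group, made by the authors over both replicates, so values have no replicate error and no test. Fold enrichment is the height of a peak over its local background. A promoter peak lay within 1 kb of an annotated transcript start of a member, and a distal peak over 2.5 kb from every transcript start and within 50 kb of a start of the member. A peak counted as lost when no base of it lay in a peak of the A-485 list.

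The promoter peaks of the members stayed in the lists after A-485 treatment, and the distal peaks did not. At late 1-cell 0 of 7 promoter peaks were lost, against 30.7% of all promoter peaks, and 2 of 2 distal peaks, against 76.9%. At early 2-cell 0 of 9 promoter peaks were lost, against 38.6%, and 20 of 20 distal peaks, against 94.5%. The loss of distal peaks near members was thus close to the background. None of their promoter peaks was lost, but these were few, and the background covers peaks near starts of every gene type. The early 2-cell lists also differ in size, with 27693 peaks after DMSO and 13712 after A-485. Held to an equal number of top peaks, 0 of 8 promoter peaks were lost at early 2-cell, against 28.0% of all. With a fold enrichment of at least 6 required in both lists, 1 of 4 promoter peaks at late 1-cell and 1 of 7 at early 2-cell were lost. The shares over all promoter peaks were then 33.4% and 39.4%.

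**Figure D4:**
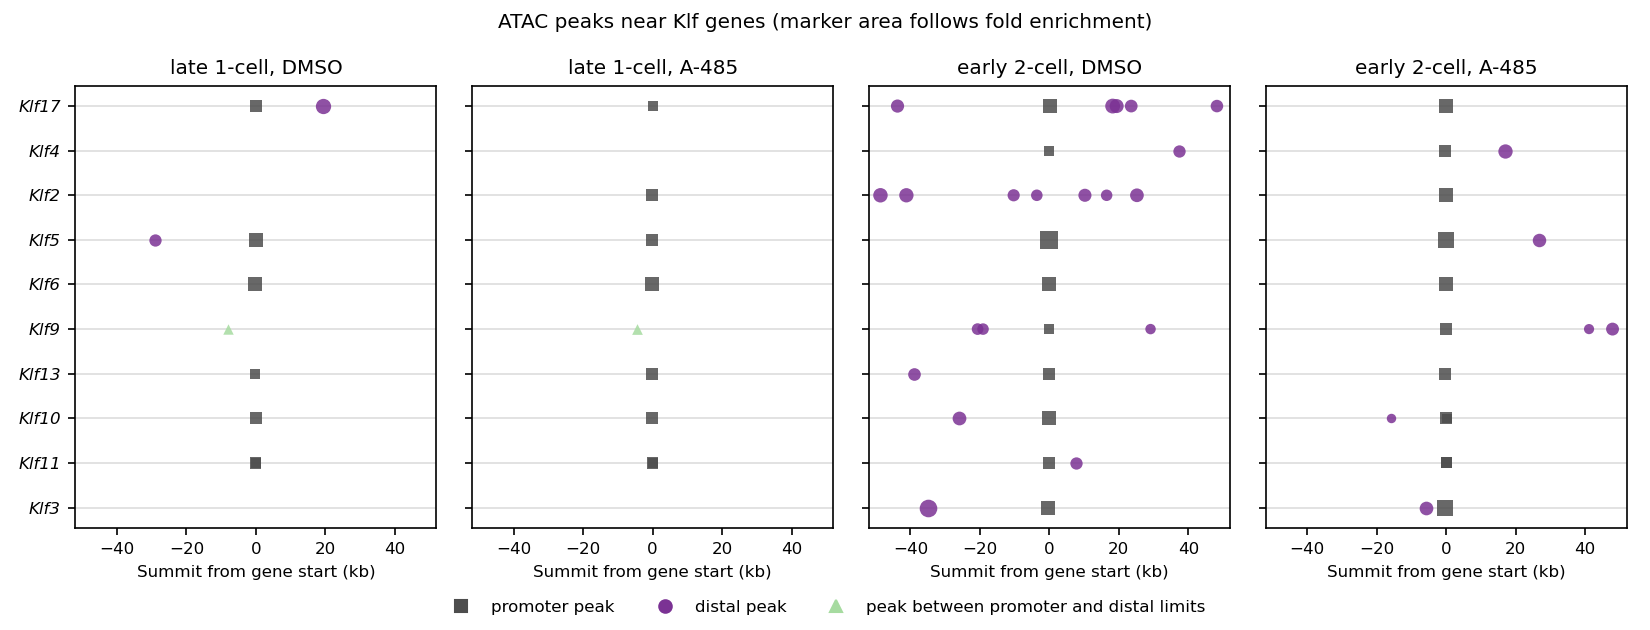
Peaks within 50 kb of a transcript start of each Klf gene in the 4 ATAC-seq lists. The x axis gives the distance from the nearest transcript start of the member to the summit in kb, negative upstream, and marker area follows fold enrichment; triangles are peaks near Klf9 that lie away from its starts but not over 2.5 kb from every annotated start. The 20 distal peaks of DMSO-treated early 2-cell embryos are absent after A-485 treatment, against 94.5% of all distal peaks of that list. The 6 distal peaks of A-485-treated early 2-cell embryos are absent from the DMSO list, against 76.6% of all distal peaks of the A-485 list.

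Klf5, Klf6, Klf10, Klf11, Klf13 and Klf17 had a promoter peak in all 4 lists, as did 15.8% of 22028 protein-coding genes. The Klf5 promoter had a fold enrichment of 9.93 after DMSO and 6.59 after A-485 at late 1-cell, and of 13.9 and 11.2 at early 2-cell. That of Klf17 had 7.07 and 5.25, then 8.04 and 9.50, and that of Klf6 had 10.2 and 8.01, then 9.81 and 9.38. Klf6 thus had a promoter peak at stages where its transcript was at or under 1.25 FPKM, and had no distal peak in any list. Klf3, Klf4 and Klf9 had a promoter peak at early 2-cell under both conditions and in neither late 1-cell list, as did 5.05% of protein-coding genes. Their fold enrichments in DMSO-treated and A-485-treated embryos were 9.18 and 10.8 for Klf3, 5.29 and 5.58 for Klf4, and 4.99 and 6.33 for Klf9, while transcripts of Klf4 and Klf9 were lower in treated embryos.

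Klf2 was the exception. It had no promoter peak in either DMSO list, but had one in both A-485 lists, with a fold enrichment of 5.59 at late 1-cell and 8.79 at early 2-cell, and 1.42% of protein-coding genes shared this pattern. The early 2-cell peak (chr8:72318778-72319318) had its summit inside the promoter sequence shown above, which holds the letters GGGCGGGGC at 2 places. In the same embryos Klf2 had 7 distal peaks after DMSO treatment, with summits from -48645 to 25219 bases from the start and with fold enrichments of 6.09 to 9.65, and none after A-485 treatment. For 4 of the 7 the nearest protein-coding start was that of Klf2.

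Near Klf17 5 distal peaks were listed for DMSO-treated embryos at early 2-cell, the most after Klf2, with fold enrichments of 7.25 to 10.1. The one shown above (chr4:117746063-117746413) was also in the late 1-cell DMSO list, with a fold enrichment of 10.8 there and 9.06 at early 2-cell, and was in neither A-485 list. Another lay 18226 bases downstream with a fold enrichment of 10.1. For 2 of the 5 the nearest protein-coding start was that of Klf17. At early 2-cell the 5 peaks were in the DMSO list only, and the Klf17 level did not differ between the 2 treatments beyond the spread of replicates. Klf17 already averaged 321.07 FPKM in DMSO-treated zygotes, and transcript left from that stage was not told apart from new transcript. Any part of the peaks in its level was not tested.

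In the same list Klf9 had 3 distal peaks, and Klf3, Klf4, Klf10, Klf11 and Klf13 had 1 each. The Klf3 peak, 34957 bases upstream, had the highest fold enrichment of the 20, 14.3. Of the 20 peaks 16 lay between genes and 4 in introns, and for 14 the nearest protein-coding start was that of the member. The A-485 list held 6 distal peaks near members at early 2-cell, at Klf3, Klf4, Klf5, Klf9 and Klf10. All 6 overlapped no DMSO peak, against 76.6% of all 3976 distal peaks of that list. Repeats covered 0 to 23.4% of their summit windows, against 0 to 100% with a median of 55.7% in the 20 lost peaks, and their GC content was 48.8% to 69.7% against 38.3% to 55.7%. The Klf4 peak of this kind (chr4:55514742-55515214), 16884 bases downstream of the gene start, held 2 Klf cores in the 201 bases around its summit. Repeats, GC content and motifs were not computed over all distal peaks of the A-485 list, so these values describe the 6 peaks only.

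Of 16 further Klf and Sp genes, the last being close relatives that bind the same GC boxes, 12 were tested in zygotes and none was called, with no unadjusted p under 0.05 by edgeR or DESeq2. At early 2-cell 2 of 14 were down-regulated by A-485 and none up-regulated, against the 7.9% and 0.402% of all genes, with a median log2 fold change of -0.24 beside -0.01 over all genes. Sp6, a factor of epithelial development, read 390 and 315 expected counts in DMSO-treated and 1 and 14 in A-485-treated embryos (-5.62 ± 0.53, adjusted p = 1.25e-05), and Klf8 68 and 58 against 13 and 20 (-2.01 ± 0.55, adjusted p = 0.0323). At late 2-cell A-485 left Sp6 at 2.01 and 1.17 FPKM against 46.31 and 49.58 FPKM in controls (-5.14 ± 0.23). Sp1, Sp2 and Klf16 were also down-regulated there, and Sp8, Sp9 and Klf14 up-regulated, so that 4 of 16 were lower and 3 of 16 higher, against 16.8% and 10.5% of all genes (median 0.34 beside 0.02). Klf14 had 0 expected counts in both controls and 59 and 46 in treated embryos. After TSA 9 of 16 were called, Sp1, Sp3, Sp6 and Klf16 down-regulated and Sp4, Sp5, Sp8, Sp9 and Klf14 up-regulated, against 13.9% and 13.8% of all genes (median 0.83 beside -0.03).

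Between DMSO-treated stages 6 of 14 rose from zygote to early 2-cell (Sp2, Sp4, Sp5, Sp6, Sp9 and Klf8) and none fell, against 11.2% and 14.9% of all genes. From early to late 2-cell Sp3, Sp6, Klf8 and Klf16 rose and Sp9 fell, 4 and 1 of 15, against 15.9% and 8.92%. The A-485 effect was higher at late than at early 2-cell for Sp4, Sp8, Sp9 and Klf14 and lower for Klf16, 4 and 1 of 16, against 7.6% and 7.38%. It was lower than the TSA effect for Sp5, Sp6 and Klf8 and higher for Sp3, 3 and 1 of 16, against 10.8% and 2.7%.

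Of 14 cofactors and ubiquitin ligases that act with Klf proteins, none was called in zygotes, where 1 had an unadjusted p under 0.05 by edgeR and 1 by DESeq2. At early 2-cell 1 of 14 was called, down-regulated, against 7.9% of all genes. This was Hdac1, a deacetylase of the Sin3 complex, at 33.28 and 28.08 FPKM in DMSO-treated and 3.86 and 7.07 FPKM in A-485-treated embryos (-3.07 ± 0.25, adjusted p = 3.22e-06). At late 2-cell Hdac1, the acetyltransferase gene Kat2b and Ep300, which encodes the p300 target of A-485, were down-regulated by A-485 (-3.17, -2.26 and -1.92) and by TSA (-1.10, -3.48 and -2.17), and none was up-regulated. These 3 of 14 compare with 16.8% of all genes down-regulated by A-485 and 13.9% by TSA. Ep300 read 115.95 and 124.09 FPKM in controls and 42.21 and 43.03 FPKM after A-485. Between stages Hdac1 rose and Ctbp2 fell from zygote to early 2-cell, against 11.2% and 14.9% of all genes, and from early to late 2-cell Hdac1, Kat2b and Ep300 rose and Ctbp2 and Sin3b fell, against 15.9% and 8.92%. The effects of A-485 and TSA differed for Hdac1 and Hdac2, both lower with A-485, against 10.8% of all genes. The A-485 effect was lower at late than at early 2-cell for Ep300 and Wdr5, against 7.38%.

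For 4 members the 3 genes nearest over the 8 RNA groups were sought by their values, with no test. Likeness was the root mean square difference of log2(mean FPKM + 1), centred on the mean of each gene, among 9898 protein-coding genes that averaged 5 FPKM or more in some group. Nearest to Klf17 were Dnajb6 (0.08), Noct (0.13) and Rsl1d1 (0.16), and nearest to Klf9 were Plekhf2 (0.19), Pitpnb (0.20) and Ctsa (0.21). Dnajb6, which encodes a chaperone, averaged 539.33 FPKM in DMSO-treated zygotes, and 258.26 and 118.56 FPKM at late 2-cell after DMSO and A-485. Nearest to Klf6 were Esx1, F3 and Nckipsd (all 0.18), and nearest to Klf4 were Tmem129 (0.19), Irf9 (0.20) and Chek2 (0.20). Esx1, a homeobox gene of the placenta, averaged 0.68 FPKM after DMSO, 9.13 FPKM after A-485 at late 2-cell and 5.65 FPKM after TSA.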

How the data were processed

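Total RNA-seq libraries (SMART-Seq Stranded Kit) and ATAC-seq samples were grouped by their labels. The 2 late 2-cell DMSO groups were assigned to the A-485 or TSA experiment by the style of their titles. For RNA-seq, the authors trimmed reads, mapped them to GRCm38 with STAR 2.7.8a and quantified genes with RSEM 1.3.1. The deposited values are expected counts (not normalized), FPKM and TPM (both scaled to the library), the effective length and the posterior SD of the count; TPM was not used for any result. The strand setting of the quantification is not given in the sources used here, and the reads of Klf3 could include those of Gm20033, an antisense gene that overlaps its exons. The deposited peak lists, 1 per group over both replicates, hold a score, a fold enrichment (ratio) over background, and -log10 p-values as given by the authors' ENCODE pipeline; lines of 1 position were joined to 10214, 7094, 27693 and 13712 peaks.

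Gene identifiers were matched to GENCODE M21 (55144 of 55385). Expected counts were rounded, and genes whose counts in a fit summed to 10 or more were tested with the quasi-likelihood test of edgeR 4.0.16 (R 4.3.3), TMM normalization and Benjamini-Hochberg adjustment over all genes; SE is the log2 fold change over the root of F. Each comparison was fitted on its own libraries. The code was tested on simulated data. Precision was judged from the spread between the 2 libraries of a group, which edgeR moderates for each gene with that of all genes in the fit. Alternatives were DESeq2 1.42.0, other scalings and filters, all 16 libraries, the replicate number as a block, leaving out each library, and other peak limits.

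All 10 members are named, with the called genes of 2 lists (16 Klf and Sp genes, 14 partners) and the 3 genes most like Klf17, Klf9, Klf6 and Klf4. The members and lists were chosen with earlier results of these data known. The CUT&RUN samples of H3K27ac were not analysed here.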

Additional observations from a re-analysis of the deposited data

Results flagged for a closer look

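The effect of A-485 differed between early and late 2-cell embryos for 3 members, by the interaction test of edgeR. The log2 difference, late minus early, was 3.24 for Klf6, 3.08 for Klf10 and -1.14 for Klf17. At late 2-cell the effect of A-485 differed from that of TSA for 5 members by the same test. The log2 difference, A-485 minus TSA, was -1.39 for Klf4, -1.40 for Klf5, -1.16 for Klf3, -1.28 for Klf10 and -2.41 for Klf2. With 2 libraries in each group, single outlying libraries could not be tested for.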

How the results depend on the processing

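Of 35 calls of a member in a comparison, 26 held under every alternative tried. Without 1 library, the count of called members lay between 0 and 0 in zygotes, 4 and 5 at early 2-cell, 5 and 7 at late 2-cell, 4 and 4 with TSA, 5 and 6 from zygote to early 2-cell, 4 and 6 from early to late 2-cell, 3 and 4 for A-485 late against early, and 4 and 5 for A-485 against TSA; the library left alone in its group is then assumed to vary like the others. Scaling to mitochondrially encoded genes raised the count for A-485 late against early 2-cell from 3 to 6 and that for A-485 against TSA from 5 to 7. Lost peaks near members fell from 2 to 1 at late 1-cell and from 20 to 8 at early 2-cell with distal peaks within 20 kb only, and from 20 to 11 when both lists were held to an equal number of top peaks, since fewer peaks entered.

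Over all genes, mitochondrial scaling moved the calls at late 2-cell with A-485 from 2406 higher and 3824 lower to 1177 and 6874, from zygote to early 2-cell from 2257 and 3002 to 1270 and 8196, for A-485 late against early from 1911 and 1855 to 947 and 5380, and for A-485 against TSA from 718 and 2868 to 326 and 5238. Total counts moved those with TSA from 3237 and 3247 to 4108 and 2384.

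Signs turned only where the value was not called. With mitochondrial scaling the log2 values became, in zygotes, 0.22 for Klf11 and 0.26 for Klf17; at late 2-cell with A-485, -0.73 for Klf10; from zygote to early 2-cell, -0.26 for Klf2, -0.46 for Klf6, -0.95 for Klf11 and -0.91 for Klf13; from early to late 2-cell, 0.028 for Klf6; for A-485 late against early, -0.12 for Klf2, -0.0953 for Klf3, -0.94 for Klf4 and -0.78 for Klf5; and for A-485 against TSA, -0.65 for Klf11 and -0.48 for Klf17. With scaling to total counts they became 0.23 for Klf4 and 0.0922 for Klf5 with TSA, 0.0191 for Klf6 from early to late 2-cell and -0.0062 for Klf11 for A-485 against TSA. With all 16 libraries Klf4 became 0.0072 with TSA. Without 1 library they ranged, in zygotes, from -0.29 to 0.62 for Klf2, -0.16 to 0.0565 for Klf11, -0.18 to 0.32 for Klf13 and -0.092 to 0.0738 for Klf17; at early 2-cell from -0.0295 to 0.15 for Klf17; from early to late 2-cell from -0.86 to 0.55 for Klf6 and -0.0603 to 0.10 for Klf17; for A-485 late against early from -0.29 to 0.18 for Klf4 and -0.0126 to 0.36 for Klf5; and for A-485 against TSA from -0.0237 to 0.14 for Klf11. The cause was not tested.

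Samples with the same replicate number did not deviate together over all genes (correlations of -0.027 to 0.084). With 2 libraries in each group this cannot show whether they came from the same collection of embryos. With the replicate number as a block, 0, 6, 7, 4, 5, 6, 3 and 5 members were called in the order of comparisons above, and Klf3 at early 2-cell was the call it added. Over all 20872 genes tested at early 2-cell the block moved the calls from 84 higher and 1649 lower to 121 and 1775.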
